A study of Boechera gunnisoniana with 7 samples.

Results

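Translation initiation and elongation factors were described in cells of the reproductive lineage of *Boechera gunnisoniana*, a triploid relative of *Arabidopsis thaliana* that forms clonal seeds (apomixis). The set held 10 genes chosen by name and listed by their *Arabidopsis* identifiers: the RNA helicases eIF4A1 and eIF4A2, the cap-binding proteins eIF4E and eIFiso4E, the scaffold eIF4G, 3 eIF5A genes and 2 eEF1A genes. Of these, 8 had a value among the 21428 genes measured. The eEF1A genes AT1G07940 and AT5G60390 had none and were not analysed here.

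RNA of 5 cell or tissue types was measured with the ATH1 GeneChip, an array designed for *Arabidopsis*. The apomictic initial cell (AIC), the founder of the germline that omits or aborts meiosis, was measured on 2 arrays. Egg, central and synergid cells of the mature gametophyte had 1 array each, and the sporophytic nucellus tissue around the AIC had 2. All came from untreated greenhouse plants of this obligate apomict, which still needs fertilization to form endosperm, and the flowers that gave the mature gametophyte cells had been emasculated. Each sample was a pool of laser-dissected sections whose RNA was amplified before labelling. By the study's description, AIC samples held some nucellus tissue, and samples of the gametophyte cells held some of their neighbours. The submitters called the pairs biological replicates, and the labels do not say which plants they came from, so p-values measure only the spread between these arrays.

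Initiation of translation in plants begins when a cap-binding protein, eIF4E or its plant-specific relative eIFiso4E, holds the 5′ end of an mRNA. A scaffold, eIF4G, joins it to the helicase eIF4A, which opens structure in the leader so that the small ribosomal subunit can scan towards the start codon. eIF5A, the protein that carries the modified amino acid hypusine, helps ribosomes through difficult peptide bonds and in termination, and eEF1A delivers aminoacyl-tRNA during elongation. Eggs and other cells that develop on stored messages are a classical setting in which these factors are studied.

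Values are log2 expression values, in which a difference of 1 is a doubling of signal. A presence cutoff was taken on each array as the log2 value that separated features the study called present, at a p value of 0.02 or lower, from the others. It lay at 4.97 and 5.01 for the AIC, 4.94 for the egg cell, 5.59 for the central cell, 5.29 for the synergids, and 4.96 and 5.07 for the nucellus. Signals of different genes come from different *Arabidopsis* probes, so levels were compared between arrays for 1 gene at a time, and an order of signals between genes says nothing of their transcript levels. A low signal may mean fewer transcripts, fewer cells of a type in the pool or a poorer match of the probes to *Boechera*, which cannot be told apart here.

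The central cell and synergid arrays stood apart from the other 5. The standard deviation of the log2 values over all genes was 1.11 for the central cell and 1.24 for the synergids, against 1.38 to 1.44 on the others. The 18 hybridization control features averaged 11.43 for the central cell and 12.49 for the synergids, against 9.25 to 10.67 on the others. Values of these arrays on which a result rests are therefore also given after quantile normalization, which gives every array the same distribution. Of the marker genes, MYB98 of the synergids (AT4G18770) stood at 6.61 on the synergid array and was above the cutoff there alone. AGL80 of the central cell (AT5G48670) was highest in the central cell, at 6.60, but was above the cutoff on 4 other arrays too, the egg cell at 6.10 and the synergids at 6.14 among them. The other 4 of 5 central cell markers were above it on no array. The EC1 genes of the egg cell, of which 2 of 5 had a value, were above the cutoff on no array, the egg cell array included. Of 6 young ovule and nucellus markers, INO (AT1G23420), a gene of the outer integument, was above the cutoff on nucellus 1 alone, at 7.14 against 4.41 on nucellus 2. STK (AT4G09960) was above it on the egg cell array alone, and the other 4 on no array.

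Of the 8 factors, 4 were above the presence cutoff everywhere, 2 nowhere, and 2 on some arrays. eIF4A1, eIF4A2, eIFiso4E and eIF5A-2 were above the cutoff on all 7 arrays, which held for 9.55% of all genes. eIF4E and eIF5A-1 were above it on no array, which held for 60.1% of all genes. eIF4G was above it on 6 arrays and eIF5A-3 on 4. By array, 6 and 5 of the 8 were above the cutoff in the AIC, 6 in the egg cell, 4 in the central cell, 5 in the synergids, and 6 and 6 in the nucellus. The shares of all genes above the cutoff were 26.5% and 26.1% in the AIC, 27.2% in the egg cell, 13.9% in the central cell, 19.4% in the synergids, and 26.6% and 24.4% in the nucellus.

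**Figure D1:**
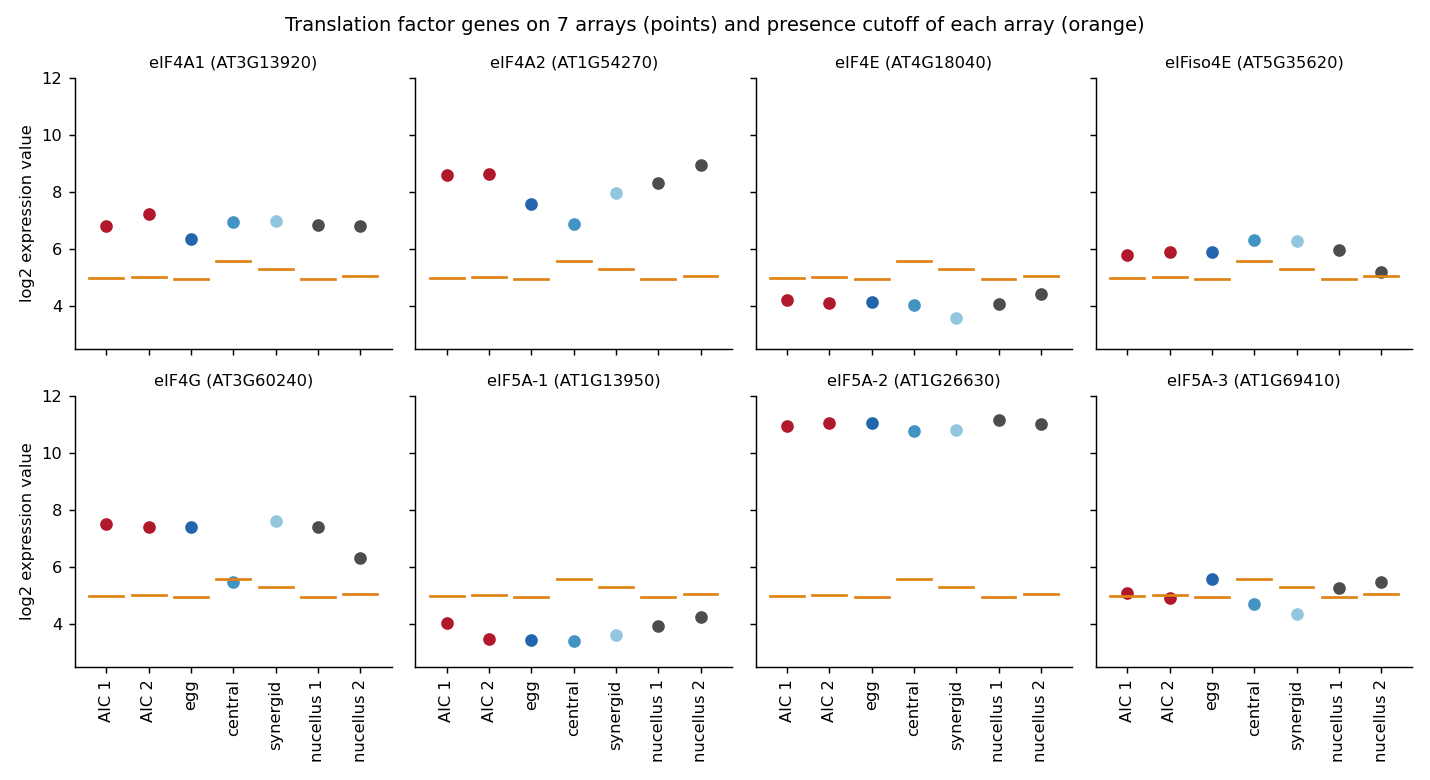
Log2 expression value (y axis) of the 8 factors on each of the 7 arrays (x axis), as 1 point per array. Red points are AIC, blue points egg, central and synergid cells, and grey points nucellus, and orange lines mark the presence cutoff of each array. eIF5A-2 sits between 10.80 and 11.17 throughout, while eIF4E and eIF5A-1 lie under the orange lines on every array.

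The cap-binding pair differed in detection. eIF4E (AT4G18040), the canonical cap-binding protein, stood at 4.22 and 4.12 in the AIC, 4.16 in the egg cell, 4.03 in the central cell, 3.58 in the synergids, and 4.06 and 4.43 in the nucellus. All 7 values lay below the cutoffs, and the AIC values fell between those of the nucellus. The highest-placed of them, 4.43 on nucellus 2, stood above 61.8% of all genes on its array, and the lowest, on the synergid array, above 29.6%. The step between the central cell and the synergids, 0.452, was the only neighbouring step in its order of levels that exceeded the larger gap within a pair of replicate arrays, 0.366, but both values lay below the cutoff. After quantile normalization these values were 3.91 in the central cell and 3.51 in the synergids, which was again the lowest.

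eIFiso4E (AT5G35620), the cap-binding subunit of the plant-specific complex eIFiso4F, had signal above the cutoff on every array. Its values were 5.80 and 5.90 in the AIC, 5.90 in the egg cell, 6.32 in the central cell, 6.29 in the synergids, and 5.97 and 5.19 in the nucellus. The central cell and synergid arrays were highest and nucellus 2 was lowest, close to its cutoff of 5.07. The 2 nucellus arrays lay 0.778 apart, which was wider than the whole spread of the 5 cell type means, 0.745, so no order of cell types could be read for this gene on the deposited scale. The spread of means exceeded the gap for the other 7 factors, and for 76.3% of all genes. After quantile normalization eIFiso4E stood at 6.90 in the central cell and 6.54 in the synergids, still its highest arrays, and the spread of its means then exceeded the gap.

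eIF4G (AT3G60240), the scaffold that binds eIF4E, eIF4A and the poly(A)-binding protein, had the widest range of the 8, 2.17. It stood at 7.50 and 7.40 in the AIC, 7.40 in the egg cell, 5.46 in the central cell, 7.63 in the synergids, and 7.41 and 6.32 in the nucellus. Both AIC arrays and those of the egg cell, the synergids and nucellus 1 lay within a narrow band at the top, and the central cell array was the lowest and the only one below its cutoff, by a small margin. Nucellus 2 stood apart from nucellus 1 by 1.08, which was the widest gap within a pair among the 8 factors, while the AIC pair differed by 0.101. The marker INO also differed between the nucellus arrays, as given above. For INO it was nucellus 1 that stood apart, at 7.14 against at most 5.08 on any other array. Its part in the eIF4G values was not tested. The step down to the central cell from its neighbour in the order, the nucellus mean, was beyond that gap, and it was the only such step.

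In the limma fit over all arrays, the AIC exceeded the central cell in eIF4G by 1.99 (SE 0.534, 95% interval 0.37 to 3.61), with an adjusted p = 0.220. The difference was 1.64 after quantile normalization. The central cell array stayed lowest for this gene then, at 5.64 against 6.21 for nucellus 2 and at least 7.14 on the other arrays. Across 87.0% of all genes the range over the 7 arrays was smaller than that of eIF4G, and across 75.1% of the 2046 genes above the cutoff on all arrays.

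The pair of eIF4A helicases did not share a pattern. eIF4A1 (AT3G13920) stood at 6.82 and 7.23 in the AIC, 6.37 in the egg cell, 6.94 in the central cell, 6.98 in the synergids, and 6.86 and 6.82 in the nucellus. The egg cell array was lowest and AIC 2 highest, and the values for AIC 1 and nucellus 2 were identical. Its AIC pair lay 0.406 apart, and the only step beyond that gap was the one between the nucellus mean and the egg cell, 0.472. The AIC exceeded the egg cell by 0.66 in the limma fit, which did not pass the test. Its central cell value moved up to 7.90 after quantile normalization, and it was then the highest.

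eIF4A2 (AT1G54270) stood at 8.60 and 8.65 in the AIC, 7.60 in the egg cell, 6.90 in the central cell, 7.98 in the synergids, and 8.34 and 8.94 in the nucellus. All 4 arrays from young ovules were higher than all 3 arrays of the mature gametophyte, as deposited. The share of all genes split in this way was not counted, so the split is not shown to be particular to eIF4A2. Detected genes, as counted below, leaned the same way. Of 6612, the AIC exceeded the mean of the gametophyte cells in 4167 and lay below it in 2445. The AIC pair (8.63 ± 0.0366, SD, n = 2) lay inside the nucellus pair (8.64 ± 0.424, SD, n = 2). In the order of levels, the steps from AIC to synergids, 0.643, and from egg cell to central cell, 0.706, exceeded the nucellus gap of 0.600. The AIC and the nucellus were not separated, nor were the synergids and the egg cell.

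In the comparison of the AIC with the mean of the egg, central and synergid cells, eIF4A2 had the largest difference of the 8, 1.13 (SE 0.233, 95% interval 0.42 to 1.84). After quantile normalization it was 0.49 (95% interval -0.27 to 1.25, adjusted p = 0.480 in limma). As deposited, its unadjusted p was 0.014 and its adjusted p over all genes was 0.240 in limma. No member passed the 0.05 threshold in that comparison, and neither did any of the 21428 genes (0.0% called). An unadjusted p under 0.05 was found for 3381 genes. The place of the central cell changed with the scaling of the arrays. After quantile normalization the egg cell was lowest at 7.45, the central cell stood at 7.82 and the synergids at 8.31, against 8.24 and 8.47 in the AIC and 7.98 and 8.63 in the nucellus, so that young ovule and gametophyte arrays overlapped. The AIC minus central cell difference for eIF4A2 was 1.73 (SE 0.313, adjusted p = 0.168) as deposited and 0.533 after quantile normalization. By its rank among all genes of the same array, eIF4A2 lay above at least 96.5% of genes everywhere, with its lowest place on the egg cell array.

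**Figure D2:**
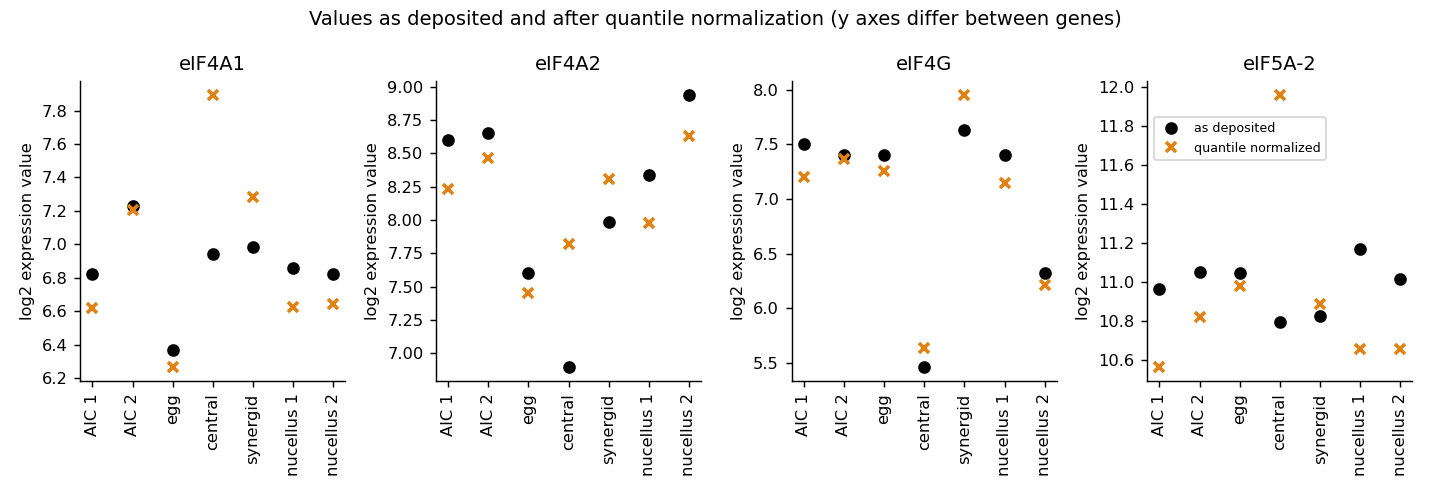
Log2 expression value (y axis, a different scale for each gene) of eIF4A1, eIF4A2, eIF4G and eIF5A-2 on the 7 arrays (x axis), as deposited (black dots) and after quantile normalization of the 7 arrays (orange crosses). The central cell values of eIF4A1, eIF4A2 and eIF5A-2 move up with quantile normalization, to 7.90, 7.82 and 11.96, while that of eIF4G stays lowest at 5.64.

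The 3 eIF5A genes, which encode closely related proteins, differed in how many arrays showed them above the cutoff. eIF5A-2 (AT1G26630) stood at 10.96 and 11.05 in the AIC, 11.05 in the egg cell, 10.80 in the central cell, 10.83 in the synergids, and 11.17 and 11.02 in the nucellus. These 7 values spanned 0.372, which made it the steadiest of the 8, and it lay above 99.87% to 99.99% of all genes on every array. A smaller range was found in 10.5% of all genes, whose median range was 0.910, and in 1.12% of the 2046 genes above the cutoff on all arrays, whose median range was 1.49. Its steadiness belonged to the deposited scale: after quantile normalization the central cell stood at 11.96, against 10.57 to 10.98 on the other arrays.

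eIF5A-1 (AT1G13950) lay below the cutoff on all arrays. Its values were 4.04 and 3.49 in the AIC, 3.44 in the egg cell, 3.42 in the central cell, 3.60 in the synergids, and 3.92 and 4.25 in the nucellus. The AIC arrays were 0.550 apart, the widest AIC gap of the 8, and no step between neighbouring cell types exceeded it.

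eIF5A-3 (AT1G69410) lay close to the presence cutoff. It stood at 5.11 and 4.92 in the AIC, 5.58 in the egg cell, 4.71 in the central cell, 4.34 in the synergids, and 5.26 and 5.47 in the nucellus. It was above the cutoff on AIC 1, the egg cell array and both nucellus arrays, and below it on the central cell, synergid and AIC 2 arrays, where AIC 2 missed it by a narrow margin. The order of means ran egg cell, nucellus, AIC, central cell, synergids, and the 3 lower steps of 0.352, 0.306 and 0.370 all exceeded the larger pair gap of 0.214, whereas the step between the egg cell and the nucellus fell just short of it. The lower steps involve arrays below the cutoff, so their size is not that of a difference between detected levels. After quantile normalization it read 5.52 in the egg cell, 4.64 in the central cell and 4.32 in the synergids, against 5.09 and 4.91 in the AIC and 5.23 and 5.45 in the nucellus, so the order of means was kept.

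For the pair of replicated groups, eIF5A-3 was the only one of the 8 whose AIC and nucellus values did not overlap: 5.01 ± 0.129 in the AIC and 5.37 ± 0.152 in the nucellus (SD, n = 2 each). Among all genes, 14.3% had both AIC arrays below both nucellus arrays, and 12.7% had both above. None of the 8 factors had both AIC arrays above. A count of 1 in 8 was thus near the share over all genes. The eIF5A-3 difference was -0.35 (SE 0.148, 95% interval -0.80 to 0.10, adjusted p = 0.938 in limma). The egg cell exceeded the synergids by 1.24 (SE 0.210, 95% interval 0.60 to 1.88) with an adjusted p = 0.250, where the synergid value lay below the cutoff, the synergids minus nucellus difference was -1.03 with an adjusted p = 0.233, and the AIC minus synergids difference was 0.68 with an adjusted p = 0.291. None of these passed the test.

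**Figure D3:**
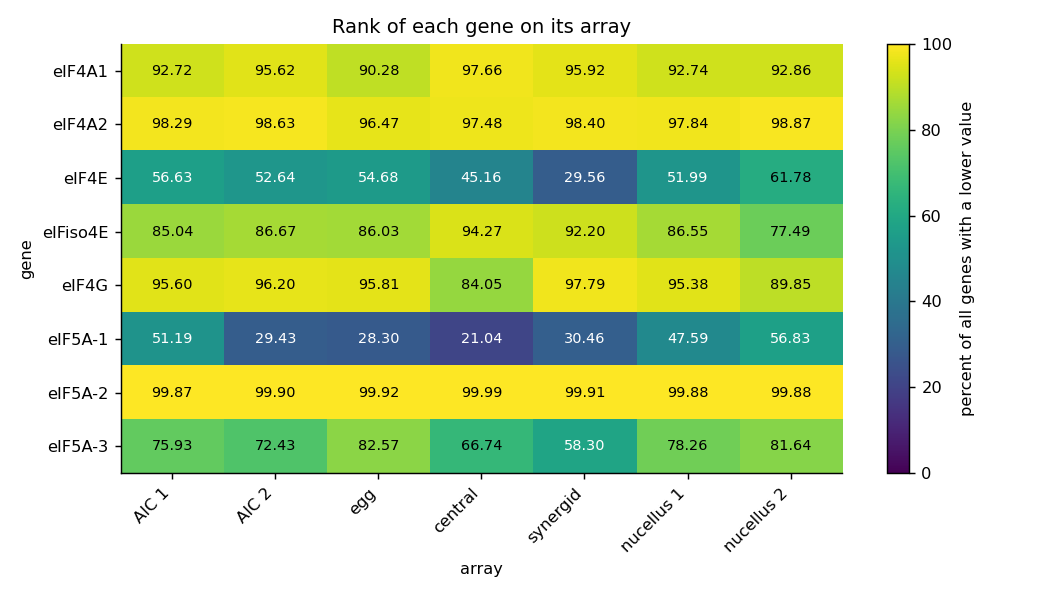
Rank of each of the 8 factors (y axis) on each array (x axis), as the percent of all 21428 genes on that array with a lower value, by colour and printed number. eIF5A-2 lies between 99.87% and 99.99% on every array and eIF4E between 29.6% and 61.8%.

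Rank on the array does not depend on an array's scale, but it still rests on probes of different genes and describes signal, not transcript number. The median rank of the 8 was 88.9% and 91.1% in the AIC, 88.2% in the egg cell, 89.2% in the central cell, 94.1% in the synergids, and 89.6% and 85.7% in the nucellus. eIF4A1 ranged from 90.3% in the egg cell to 97.7% in the central cell, and eIFiso4E from 77.5% on nucellus 2 to 94.3% in the central cell. eIF4G ranked at 95.6% and 96.2% in the AIC, 95.8% in the egg cell, 84.1% in the central cell, 97.8% in the synergids, and 95.4% and 89.9% in the nucellus, so it was lowest in the central cell on this scale too. eIF5A-3 ranked highest in the egg cell, at 82.6%, and lowest in the synergids, at 58.3%, as on the log2 scale.

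The AIC was set against the nucellus to ask which genes mark the start of the germline. Over the 8 factors the median AIC minus nucellus difference was -0.043, against -0.0050 over all genes, with 3 positive and 5 negative differences. Over all genes, 10448 differences were positive and 10919 negative. The largest of the 8 was that of eIF4G, 0.59 (SE 0.436, 95% interval -0.74 to 1.91), which became 0.047 without nucellus 2 and 1.13 without nucellus 1. eIFiso4E differed by 0.27 (95% interval -0.71 to 1.25), eIF4A1 by 0.18 (-0.39 to 0.75) and eIF5A-1 by -0.32 (-1.13 to 0.50). eIF5A-2 had the narrowest interval, -0.084 (-0.45 to 0.28). No member passed the threshold (smallest adjusted p = 0.938 in limma), none had an unadjusted p under 0.05, and no gene of the 21428 was called (0.0%), with 819 at an unadjusted p under 0.05. The intervals of most members include changes of some size in either direction, so the absence of calls does not show that levels were equal.

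Against the mean of the gametophyte cells, 7 of the 8 differences were positive and 1 was negative, as deposited. Over all 21428 genes, 9081 were positive and 12347 negative. The median of the 8 was 0.25, against -0.060 over all genes. Most of these genes were above the cutoff on no array. Among the 6612 genes above it on at least 2 arrays, 4167 were positive and 2445 negative, with a median of 0.21. A lean towards the AIC was thus shared by detected genes in general. Beside eIF4A2, eIF4G differed by 0.62 (95% interval -0.59 to 1.83), eIF5A-1 by 0.28, eIF4A1 by 0.26, eIF4E by 0.25, eIF5A-3 by 0.14 and eIF5A-2 by 0.12, and eIFiso4E by -0.32. The differences of eIF4A1 and eIF5A-2 changed sign after quantile normalization, to -0.24 and -0.58, so their direction cannot be read. Those of eIF4G and eIFiso4E became 0.33 and -0.62. Both comparisons use the same AIC arrays.

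**Figure D4:**
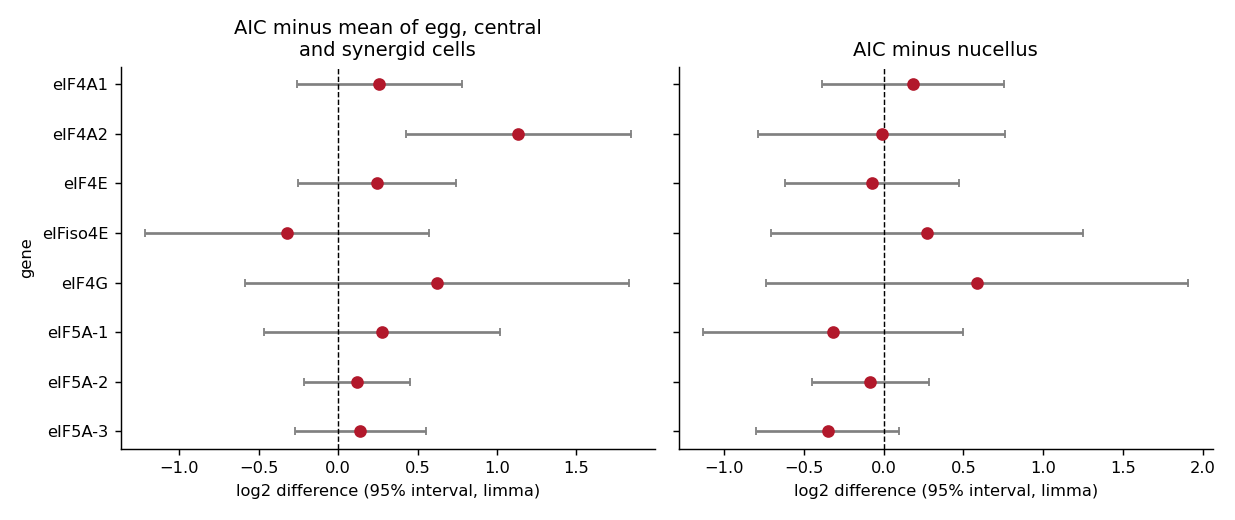
Log2 difference (x axis) of each of the 8 factors (y axis) for the AIC minus the mean of egg, central and synergid cells (left) and for the AIC minus the nucellus (right), with limma's 95% interval as a bar and 0 as the dashed line. The interval of eIF4A2 on the left, 0.42 to 1.84, is the only one that does not include 0.

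Across the 10 possible pairs of cell types, the 8 factors gave 80 differences. Limma called 0 of them after adjustment over all genes, with an unadjusted p under 0.05 for 13. The smallest adjusted p was 0.163, for eIF4A2 in the central cell minus nucellus comparison (-1.74, and -0.49 after quantile normalization). Of all genes on the array, none was called in any of the 10 pairs (0.0% in each), with 819 to 3926 at an unadjusted p under 0.05. By the gaps within replicate pairs, 9 of the 32 steps between neighbouring cell types exceeded the larger gap, against 19.3% of the steps over all genes. After quantile normalization 8 of the 32 did, against 19.9%, and the whole range of cell type means exceeded the gap for all 8 factors, against 78.0% of all genes. Lowest values fell on the central cell array in 4 of the 8, on the synergid array in 2, and once each on the egg cell and nucellus 2 arrays. Among all genes, the lowest value fell on these arrays in 11.3%, 13.8%, 19.3% and 11.8%, in the same order. The central cell array held the lowest value of 2 of the 8 after quantile normalization, eIF4G and eIF5A-1, against 15.7% of all genes.

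Correlations between the factors were taken over the 7 arrays, where the genes share the scale of each array and 2 pairs of arrays are replicates. Pearson's r was 0.73 between eIF5A-2 and eIF5A-3, 0.26 between eIF4A1 and eIF4A2, and -0.74 between eIFiso4E and eIF4A2, which were highest and lowest on the central cell array. All r given here were taken on the deposited scale only. After quantile normalization eIF5A-2 was highest in the central cell, at 11.96, where eIF5A-3 stood at 4.64, so a shared pattern cannot be read for them. eIF4A2 was then lowest in the egg cell, at 7.45, and not in the central cell. Correlations with eIF4E and eIF5A-1 are not given, since both lay below the cutoff on all arrays. The genes most similar in pattern were sought among 4927, each above the cutoff on 4 or more arrays, and were AT2G42800 (r = 0.98) and AT5G09230 (0.98) for eIF4A1, AT3G58700 (0.97) and AT3G04470 (0.97) for eIF4A2, and AT2G23140 (0.95) and AT1G12050 (0.91) for eIFiso4E. The closest to eIF4G were the mitochondrial genes ATMG00080 and ATMG00090 (0.99 each), which had identical values on every array. For eIF5A-2 they were AT1G07830 (0.99) and AT5G12410 (0.98), and for eIF5A-3 they were AT5G58220 (0.98) and AT4G25000 (0.97). Depending on the factor, an r above 0.9 was found for 0.122% to 1.79% of the genes searched.

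The rest of the translation machinery was read from 5 lists of 65 further genes, named by their *Arabidopsis* identifiers from general knowledge, of which 47 had a value. Of these, 14 were above the cutoff on all arrays and 13 on none. In the AIC 30 and 29 were above it, in the egg cell 30, in the central cell 15, in the synergids 24, and in the nucellus 33 and 23. Of all genes, 9.55% were above the cutoff on all arrays and 60.1% on none. By array, the shares of all genes were 26.5% and 26.1% in the AIC, 27.2% in the egg cell and 13.9% in the central cell. They were 19.4% in the synergids, and 26.6% and 24.4% in the nucellus, so the central cell was lowest there too. Both AIC arrays were above both nucellus arrays for 5 of the 47 genes and below for 5, against 12.7% and 14.3% of all genes. The median AIC minus nucellus difference was -0.014, against -0.0050 over all genes. Limma called none, as for all genes (0.0%).

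**Figure D5:**
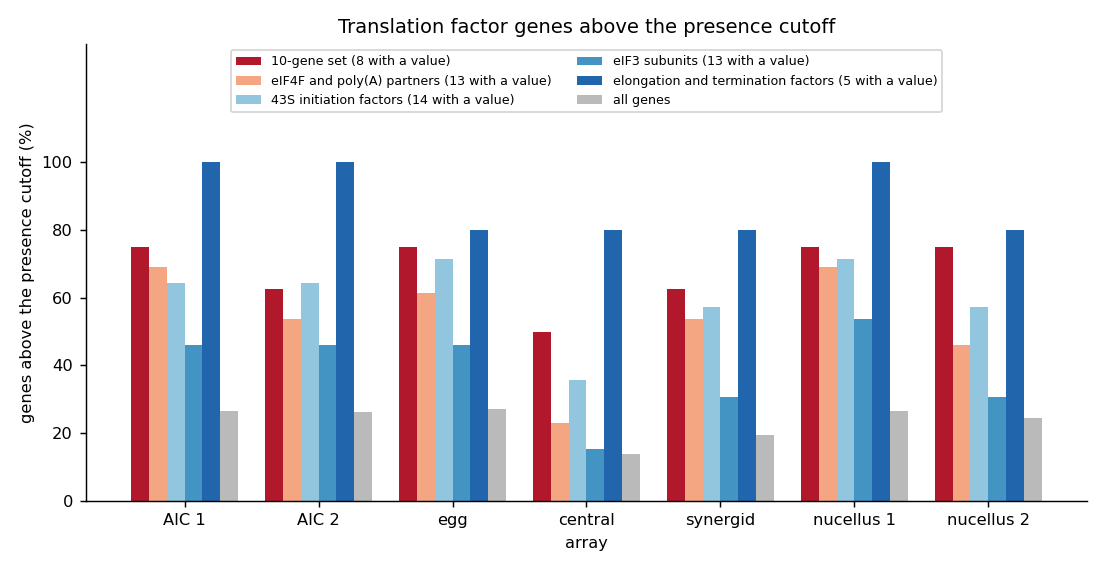
Percent of genes above the presence cutoff (y axis) on each array (x axis) for the 8 factors, 4 lists of further translation factors and all genes, as bars from 0. On the central cell array, 3 of 13 eIF4F and poly(A) partners, 5 of 14 43S factors, 2 of 13 eIF3 subunits and 4 of 5 elongation and termination factors are above the cutoff, beside 13.9% of all genes.

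Among the eIF4F and poly(A) partners, which hold the further eIF4A and eIF4E forms, eIFiso4G, eIF4B and the poly(A)-binding proteins, 3 of 13 genes were above the cutoff on all arrays and 4 on none. PAB2 (AT4G34110), a poly(A)-binding protein, was above the cutoff on all arrays, with 7.52 and 6.83 in the AIC and 7.84 and 6.60 in the nucellus. eIFiso4G2 (AT2G24050), scaffold of eIFiso4F, was above it on none. nCBP (AT5G18110), another kind of cap-binding protein, had values of 6.83 and 6.86 in the AIC and 6.83 and 5.46 in the nucellus, a difference of 0.70 that rested on nucellus 2, as that of eIF4G did. AT1G72730, a further eIF4A gene, had the largest negative difference, -0.36, and was at 4.15 in the central cell against at least 5.56 elsewhere. It stayed lowest there after quantile normalization, at 4.03.

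The 43S initiation factors place the initiator tRNA and find the start codon, and 4 of 14 were above the cutoff on all arrays and 3 on none. AT5G54760, an eIF1 gene of start codon selection, had values of 9.61 and 9.64 in the AIC, 8.52 in the egg cell, 5.21 in the central cell, 8.36 in the synergids, and 9.82 and 9.03 in the nucellus. The central cell was the lowest for this gene, as for eIF4A2 and eIF4G, and stayed so after quantile normalization, at 5.28. The AIC minus nucellus differences reached furthest for AT1G54290 (eIF1), 0.46, and AT5G35680 (eIF1A), -0.47. The first rested on AIC 1, with 7.06 and 5.55 in the AIC against 5.90 and 5.79 in the nucellus. The second rested on nucellus 1, at 7.75 against 6.46 on nucellus 2 and 6.63 and 6.64 in the AIC. AT5G54940 (eIF1) was above the cutoff on no array.

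Of the eIF3 subunits, the scaffold of the small subunit, 13 of 19 genes had a value, 2 were above the cutoff on all arrays and 6 on none. eIF3e (AT3G57290) had the largest negative difference, -0.79: its values were 9.12 and 8.10 in the AIC, 8.95 in the egg cell, 7.69 in the central cell, 7.88 in the synergids, and 9.68 and 9.11 in the nucellus. AIC 1 stood just above nucellus 2, so the groups overlapped as deposited. After quantile normalization AIC 1 stood at 8.75, just below nucellus 2 at 8.80. The central cell, lowest as deposited, then stood at 8.95, above all arrays but nucellus 1, at 9.25. eIF3g2 (AT5G06000) had the largest positive difference, 0.78, with 6.25 and 5.48 in the AIC against 5.97 and 4.20 in the nucellus. The groups overlapped, and the difference rested on nucellus 2, which lay below its cutoff. eIF3c2 (AT3G22860) was above the cutoff on no array.

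Elongation and termination factors had a value for 5 of 14 genes, none of them an eEF1A gene, and 4 of the 5 were above the cutoff on all arrays. AT5G19510, an exchange factor for eEF1A (eEF1B), was above it everywhere, with 9.62 and 9.72 in the AIC, 9.60 in the egg cell, 8.69 in the central cell, 9.29 in the synergids, and 9.98 and 8.72 in the nucellus. The central cell was lowest as deposited but highest after quantile normalization, at 10.07 against 8.39 to 9.56 on the other arrays. The eEF1B gene AT5G12110 had the largest positive difference, 0.43, with values of 6.68 and 6.84 in the AIC and 6.48 and 6.17 in the nucellus that did not overlap. The release factor gene AT5G47880 (eRF1) differed by -0.072, and AT1G18070 (eRF3), a GTPase of termination, was above the cutoff on 3 arrays.

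Hypusine is made on eIF5A by 2 enzymes, both of which had a value. Deoxyhypusine synthase (AT5G05920), which transfers part of spermidine onto eIF5A, was above the cutoff on all arrays, with 5.44 and 5.73 in the AIC, 5.36 in the egg cell, 5.98 in the central cell, 5.73 in the synergids, and 7.66 and 5.82 in the nucellus. Nucellus 1 stood apart from the 6 other arrays, as it did for INO, whose part in this value was not tested. The AIC minus nucellus difference was -1.16 (SE 0.734, adjusted p = 0.938 in limma). Deoxyhypusine hydroxylase (AT3G58180), which completes the residue, had 4.92 and 5.62 in the AIC, 6.04 in the egg cell, 5.04 in the central cell, 4.68 in the synergids, and 5.47 and 4.04 in the nucellus. It was highest on the single egg cell array, as eIF5A-3 was. The synthase was lowest there, at 5.36 against 5.44 on AIC 1, as were 19.3% of all genes. For both enzymes the nucellus arrays lay further apart than the egg cell array did from its nearest array, so no order is read.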

How the data were processed

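RNA of 7 pools of laser-dissected *B. gunnisoniana* cells was amplified with the MessageAmp II Kit and hybridized to ATH1 arrays. The authors deposited log2 expression values for 21492 features (21428 genes and 64 controls) under the brainarray TAIRG version 14 probe annotation. Their methods name RMA for heatmap values. The sources used here do not state how the deposited table was normalized. Presence was called by the study with an algorithm that used *Boechera*-specific negative probes. Those calls, published beside the paper and held here for the first 1999 features only, served to place the presence cutoff on the deposited log2 values of each array, with 0 of these features misplaced. Since the same calls set the cutoff, that is no independent check. Arrays have no read depth, and their number limits the precision.

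All 7 arrays were fitted with limma 3.58.1 in R 4.3.3 on the log2 values, with 1 mean per cell type. The pairs gave 2 residual degrees of freedom (prior degrees of freedom 1.28), and cell types with 1 array were assumed to vary like the pairs. P-values were adjusted by Benjamini-Hochberg over 21428 genes, with a threshold of 0.05. The fit was tried on simulated data with the same design, for the AIC against the nucellus, with spreads drawn from the fitted prior. Of 200 changed genes it called 0 at a log2 change of 1 and 0 at 2. At a log2 change of 4 it called 147, with 8 unchanged genes called too. A difference that did not pass may thus still be real. Alternatives were quantile normalization, median centring, a filter on low values, other cutoffs, a trended prior, a replicate block, the 4 AIC and nucellus arrays alone and leaving out each replicate, and those for the pairwise contrasts and for the order of cell types were added after seeing the data.

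All 8 genes of the set with a value were named. In each further list the genes with the highest and lowest mean and with the largest AIC minus nucellus difference in each direction among those above the cutoff on at least 4 arrays were named, a rule that ranks signals and not transcript levels, and for each of the 8 above it on at least 4 arrays the 2 genes with the highest r. The members and lists were chosen with earlier results of these data known. Gene names of the lists come from general knowledge.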

Additional observations from a re-analysis of the deposited data

How the results depend on the processing

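No factor of the set was called in either main comparison or in any of the 10 pairs under the alternatives run. Of 100 combinations of an alternative setting and a contrast, 1 called any gene of the array, 3 genes in AIC against egg cell after quantile normalization. These combinations share arrays and fits, so they are not independent checks. Median centring moved the median of all genes for AIC minus central cell from -0.072 to 0.076. Whether the replicate numbers pair the arrays is not known. The difference between number 2 and number 1 arrays in the AIC had r = 0.031 with that in the nucellus, across all genes, which are not independent replicates. That value cannot decide it. Across all genes, AIC 1 had r = 0.927 with nucellus 1 and 0.907 with AIC 2. AIC 2 had 0.834 with nucellus 2, and the 2 nucellus arrays had 0.853. With the number as a block, 0 of the 8 were called against the nucellus (smallest adjusted p = 0.964) and 0 against the mean of the gametophyte cells (0.425).

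The AIC minus nucellus difference changed sign for eIF4A2 (0.045) and eIF5A-2 (0.036) after quantile normalization. With 1 array left out at a time it ran from -0.019 (without AIC 2) to 0.39 (without AIC 1) for eIF4A1, from -0.31 (without nucellus 1) to 0.29 (without nucellus 2) for eIF4A2, where it was 0.012 without AIC 1, from -0.26 (without nucellus 1) to 0.11 (without nucellus 2) for eIF4E, and from -0.12 (without nucellus 2) to 0.66 (without nucellus 1) for eIFiso4E. Against the mean of the gametophyte cells, eIF4A1 (-0.24) and eIF5A-2 (-0.58) changed sign after quantile normalization. Central and synergid arrays have another spread of values, as the report gives. The cause of the other sign changes was not tested. Ranked only among genes above the cutoff on at least 1 array, which leaves out low signals, the median rank was 72.1% and 77.8% in the AIC, 70.3% in the egg cell, 73.2% in the central cell, 85.1% in the synergids, and 74.0% and 64.3% in the nucellus.

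The number of factors above the cutoff on all arrays was 3 at a p value of 0.01, and 5 both at 0.05 and with the 75th percentile of each array as the cutoff, against 4 at 0.02. It was 4 with any AIC or nucellus array left out. Cell types with 1 array have no measured spread of their own.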
